A study of Mus musculus with 34 samples.

Results

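The effect of losing Mta2 and the effect of losing Mta3 on gene expression were set against each other in mouse ES cells, the pluripotent cells derived from the early embryo. Of the 34 RNA-seq libraries of the series, the 12 of the groups Mta2_KO, Mta2_WT, Mta3_del/del and Mta3_flox/flox were used, 3 in each group. All 12 were labelled as strain 129/Ola and as grown in 2i+LIF, a medium in which the cytokine LIF and inhibitors of the kinases Gsk3 and Mek hold ES cells in a naive state. Mta2_KO cells carry a null allele made by Cre from a EUCOMM knockout-first allele, Mta3_del/del cells were made by Cre from flox/flox parents, and the Mta3_flox/flox controls keep the floxed alleles. Mta2_WT cells are wild-type ES cells and not the parent of the Mta2-null line. The lists of ES cell lines give 1 primary Mta2-null line, against 3 primary lines each of Mta3_flox/flox and Mta3_del/del. Genotype and line therefore cannot be told apart in the Mta2 effect, and p-values measure the spread between these libraries, which in the Mta2 groups may be that of repeat cultures of 1 line.

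Mta1, Mta2 and Mta3 are paralogous subunits of NuRD, the nucleosome remodelling and deacetylation complex. An MTA protein forms the scaffold on which the histone deacetylases Hdac1 and Hdac2 and the histone chaperones Rbbp4 and Rbbp7 assemble, and Mbd2 or Mbd3 links this part to the remodeller Chd4. NuRD is found at enhancers and promoters of active genes, where it tunes transcription, and in ES cells it is known for its part in the exit from the naive state. Whether the paralogues act on the same genes is the question that the comparison of the 2 losses addresses.

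The Mta2 effect is the log2 fold change of Mta2_KO against Mta2_WT, the Mta3 effect that of Mta3_del/del against Mta3_flox/flox, and the difference is the Mta2 effect less the Mta3 effect. A positive difference thus means a larger rise, or a smaller fall, after Mta2 loss. All 3 were tested in 1 edgeR quasi-likelihood fit of the 12 libraries over 10827 genes with a mean above 5 CPM (a gene's count relative to the total of its library, scaled by TMM), of 22018 genes in the files. A gene could pass this filter through a high level in 1 group alone. A value was called if it was above 1 or below -1 on the log2 scale and its p, adjusted by the Benjamini-Hochberg method, was under 0.05. Values after ± are standard errors of that fit with n = 3 libraries per group, and intervals are at the 95% level.

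The targeted genes followed their labels in every library. Mta2 (ENSMUSG00000071646, chr19:8941875-8952303, plus strand, GRCm38) stood at 11.5, 8.82 and 9.997 CPM in Mta2_KO and at 223, 237 and 229 in Mta2_WT. It stood at 248, 241 and 291 CPM in Mta3_del/del and at 227, 218 and 224 in Mta3_flox/flox. Mta3 (ENSMUSG00000055817, chr17:83706163-83821516, plus strand) stood at 10.5, 12.8 and 8.98 CPM in Mta3_del/del against 65.6, 76.7 and 71.2 in Mta3_flox/flox, and between 57.9 and 67.6 in the 6 Mta2 libraries. Neither of these was called as changed when the other was lost, with a log2 change of 0.22 ± 0.09 for Mta2 after Mta3 loss (adjusted p = 0.08) and of -0.13 ± 0.10 for Mta3 after Mta2 loss (adjusted p = 0.354). Mta1 was higher in Mta2_KO, at 37.8, 31.9 and 36.0 CPM against 21.4, 25.5 and 18.5 in Mta2_WT, and lay between 76.5 and 85.96 in all 6 Mta3 libraries. Its difference, 0.77 ± 0.15 (adjusted p = 0.00209), was under the threshold on fold change.

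Libraries held between 13622624 and 40613585 counts. The median SD of log2 CPM between replicates was 0.065 in Mta2_KO and 0.071 in Mta2_WT, but 0.15 in Mta3_del/del and 0.146 in Mta3_flox/flox, and the joint fit gives all 4 groups 1 estimate. Replicates of each group differed beyond counting noise, the chi-square of their counts being 4.41 to 215 times its degrees of freedom. Replicate 3 of both Mta3 groups stood apart, with 76.0 to 103 CPM of the Y-linked Ddx3y against at most 0.568 CPM in the other 10 libraries. Leaving out both of them gave 1000 genes with a called difference, of which 927 were among the 1158 of the full set. ES cell markers matched the label: Pou5f1, which encodes the pluripotency factor Oct4, lay between 504 and 839.9 CPM in all 12 libraries.

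The 2 losses differed in their effect on 1158 genes (10.7% of those tested), the difference being positive for 743 (6.86%) and negative for 415 (3.83%). With the adjusted p alone the count was 4035 (37.3%), 1985 positive and 2050 negative, so that the excess of positive differences was not present without the threshold on fold change. The Mta2 effect was called for 801 genes (7.4%), 403 up (3.72%) and 398 down (3.68%). The Mta3 effect was called for 469 (4.33%), of which 92 were up (0.85%) and 377 down (3.48%). Both effects were called for 193 genes, 24.1% of the genes called for Mta2 and 41.2% of those called for Mta3. Of these 193, 124 were down in both, 18 were up in both and 51 had opposite signs. Without Mta3_del/del replicate 2 the Mta3 effect was called for 140 genes up and 579 down.

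Genes were put in 6 classes by these 3 calls. In the shared class both effects were called with the same sign and the difference was not, which held for 16 genes up (0.148% of those tested) and 109 down (1.01%). The graded class, where the same-sign effects also differed, held 2 genes up and 15 down. The Mta2-weighted class, where the difference and the Mta2 effect alone were called, held 268 up and 186 down, and the Mta3-weighted class held 35 up and 138 down. The opposite class held 34 genes up after Mta2 loss and down after Mta3 loss, and 17 the other way round. In the split class the difference was called although neither effect was, with 301 positive and 162 negative differences. Without Mta3_del/del replicate 2 the Mta3-weighted class held 62 genes up and 266 down, and the opposite genes down after Mta2 loss numbered 33, against 8 without Mta3_del/del replicate 3 and 11 without Mta3_flox/flox replicate 3. Without Mta3_flox/flox replicate 1 the Mta3-weighted class held 60 genes up. The groups of replicates did not overlap for 64.4% of all tested genes in the Mta2 comparison and for 39.4% in the Mta3 comparison.

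**Figure D1:**
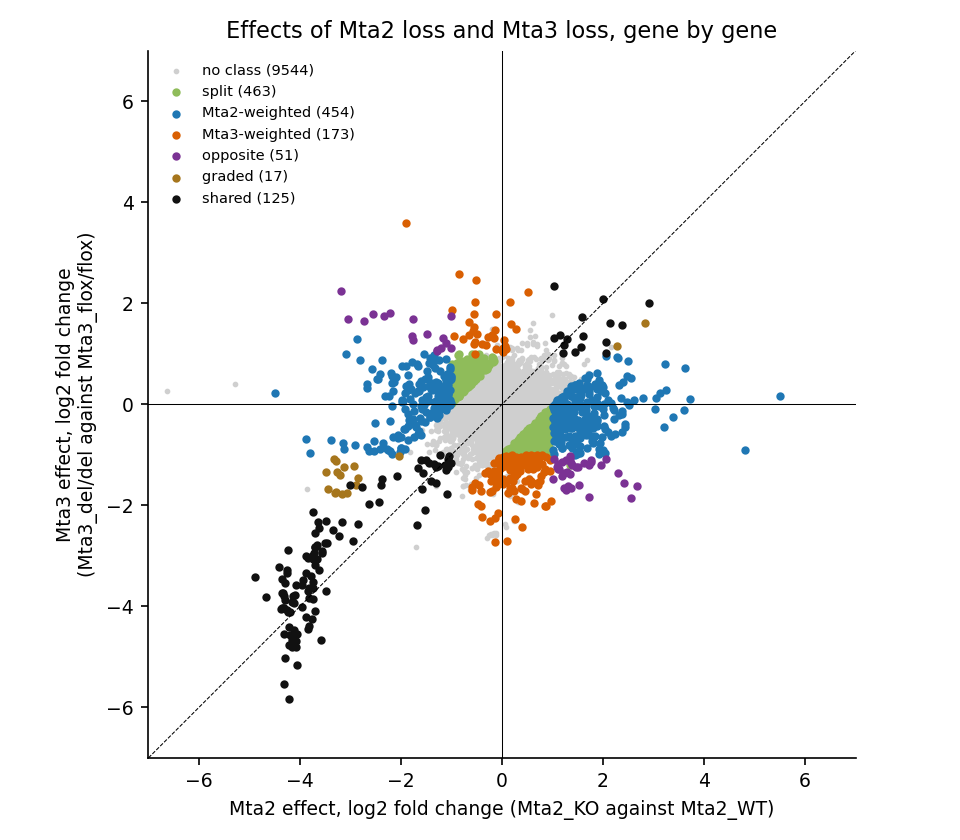
Each point is 1 of 10827 genes, with its Mta2 effect on the horizontal axis and its Mta3 effect on the vertical axis, both as log2 fold changes; colours give the classes with their number of genes, and the dashed line marks equal effects. The shared genes form a tail at the lower left, whereas the Mta2-weighted genes spread along the horizontal axis and the Mta3-weighted genes along the vertical one.

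Across the 10827 genes the 2 effects, which have no library in common, had a Pearson correlation of 0.319 and a Spearman correlation of 0.0384, which only describe the data because genes do not replicate one another. They had the same sign for 51.3% of genes. Without the 142 genes of the shared and graded classes the Pearson correlation was -0.0389 and the Spearman correlation 0.000316. These classes are defined by effects of the same sign, so that their removal had to lower the correlation.

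The genes reduced after both losses included those that a minority of ES cells switch on when they pass through a state like the 2-cell embryo. Of the 20 genes of a list of that state, which was chosen after the values of the shared class were seen, 19 were in the files and 12 were tested. Of the 12, 11 were down after Mta2 loss and 12 after Mta3 loss, beside 3.68% and 3.48% of all tested genes. None had a called difference (all tested genes: 10.7%). The median effects were -4.08 and -3.69 beside 0.00 over all tested genes in both comparisons. Zscan4d, which encodes a DNA-binding protein of the 2-cell stage linked to telomere maintenance, stood at 11.1, 11.3 and 9.03 CPM in Mta2_KO against 210.4, 207 and 228 in Mta2_WT. It stood at 1.40, 0.895 and 2.19 CPM in Mta3_del/del against 8.53, 38.3 and 11.0 in Mta3_flox/flox. In both comparisons the groups were separate, but the Mta2_KO level was within the range of the Mta3 controls. Its Mta2 effect was -4.35 ± 0.41, its Mta3 effect -3.73 ± 0.59 and the difference -0.61 ± 0.72, with an interval of -2.19 to 0.96. The Zscan4 and Usp17l genes of this list are near-identical copies whose counts may be split between them.

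Genes of the class outside these families showed the same order of levels. Zfp352, a zinc finger gene of the 2-cell stage, stood at 1.68, 1.48 and 0.971 CPM in Mta2_KO, at 29.2, 29.7 and 31.1 in Mta2_WT, at 0.175, 0.195 and 0.163 in Mta3_del/del and at 0.367, 3.18 and 1.14 in Mta3_flox/flox. Tmem92 (chr11:94777217-94782703, minus strand), which encodes a membrane protein, stood at 7.37, 8.15 and 7.18 CPM in Mta2_KO against 115, 94.8 and 114 in Mta2_WT, and at 1.57, 1.32 and 2.93 in Mta3_del/del against 11.2, 49.3 and 20 in Mta3_flox/flox. Both effects on Tmem92 were -3.83, with a difference of 0.00 ± 0.64 and an interval of -1.40 to 1.40. Sp110, a nuclear body gene with related copies nearby, had effects of -3.94 ± 0.41 and -3.47 ± 0.49. In Zscan4d, Zfp352, Tmem92 and Sp110 the highest levels were in Mta2_WT, those of Mta2_KO and Mta3_flox/flox came next and those of Mta3_del/del were lowest, and Mta3_flox/flox replicate 2 was the highest of its group. Zfp352 passed the filter on the mean level through Mta2_WT alone, so that its highest group was set by the filter.

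Over the 109 genes reduced in both, the median effect was -3.74 after Mta2 loss and -3.27 after Mta3 loss. The control levels of the 2 comparisons were far apart for this class, the median log2 CPM difference of Mta2_WT from Mta3_flox/flox being 3.32 beside 0.004 over all tested genes. Some of these genes passed the filter through Mta2_WT alone, which favours such a gap. The 95% interval of the difference held 0 for 101 of the 109 genes but lay within ±1 for only 14, so that equal effects were not shown for most of them. Without Mta3_flox/flox replicate 2 the shared class fell to 58 genes down, and the graded class rose from 15 to 52. In RNA from whole cultures, fewer cells in this state and less RNA per cell cannot be told apart.

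Fewer genes rose after both losses. Sfmbt2, an imprinted Polycomb group gene, stood at 172, 156 and 168 CPM in Mta2_KO against 55.2, 59.9 and 52.0 in Mta2_WT, and at 116, 124 and 38.4 in Mta3_del/del against 36.5, 31.1 and 16.8 in Mta3_flox/flox. The Mta2 groups were far apart, whereas Mta3_del/del replicate 3 lay close to its controls. The 2 effects were 1.58 ± 0.35 and 1.73 ± 0.37. The keratin gene Krt42 rose by 1.99 ± 0.36 and 2.09 ± 0.36, and Ina, which encodes the neuronal intermediate filament protein internexin, by 2.91 ± 0.42 and 2.01 ± 0.42. Sall1, which encodes a zinc finger partner of NuRD, stood at 103, 85.7 and 107 CPM in Mta2_KO against 37.8, 41.04 and 30.8 in Mta2_WT, and at 169, 210.5 and 167 in Mta3_del/del against 106, 87.3 and 74.1 in Mta3_flox/flox. It rose by 1.44 ± 0.15 and 1.03 ± 0.15, with a difference of 0.41 ± 0.21 and an interval of -0.05 to 0.88. Lefty1, an inhibitor of Nodal signalling, rose by 1.03 ± 0.36 and 2.34 ± 0.39 (adjusted p = 0.0432 for the first). Without any 1 of the 6 Mta2 libraries the Mta2 effect on Lefty1 was no longer called. The transcription factor gene Msc rose by 1.60 ± 0.29 and 1.35 ± 0.32, and Mocos, which encodes a molybdenum cofactor sulfurase, by 2.05 ± 0.26 and 1.23 ± 0.26. The call of the Mta3 effect was lost for Msc without Mta3_del/del replicate 2 (0.973) and with separate fits (adjusted p = 0.0756), and for Mocos without Mta3_del/del replicate 3 (0.988) and without replicate 3 of both Mta3 groups (0.839).

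In the graded class all 15 reduced genes fell further after Mta2 loss. Dhtkd1 (chr2:5896115-5942792, minus strand), which encodes a mitochondrial dehydrogenase, stood at 43.9, 41.6 and 41.6 CPM in Mta2_KO against 327, 323 and 329.5 in Mta2_WT, and at 34.1, 36.3 and 38.0 in Mta3_del/del against 65.3, 113 and 72.2 in Mta3_flox/flox. Both mutants lay between 34.1 and 43.9 CPM, and Mta2_WT stood apart. Its effects were -2.94 ± 0.15 and -1.22 ± 0.16, with a difference of -1.72 ± 0.22 (adjusted p = 0.00019). Tnfrsf22, a decoy receptor gene for the TRAIL ligand, and Ccser1, Mecom and Tmc5 also had their highest levels in Mta2_WT and their lowest in Mta3_del/del, with differences of -1.54, -1.77, -1.56 and -1.41. Mecom passed the filter through Mta2_WT alone, at 20.7 to 23.2 CPM against at most 4.03 in the other libraries. Without Mta3_flox/flox replicate 2 the Mta3 effects on Dhtkd1, Tnfrsf22 and Ccser1 were -0.937, -0.989 and -0.979 and no longer called, and that on Mecom was not called with separate fits or with limma-voom (adjusted p = 0.0679 and 0.0616). Crip1, which encodes a LIM domain protein, and Hsd17b14, which encodes a steroid dehydrogenase, rose after both losses and more after Mta2 loss, by 2.83 ± 0.14 against 1.62 ± 0.15 and by 2.28 ± 0.17 against 1.16 ± 0.17. The Mta3 effect on Hsd17b14 was 0.943, and not called, without Mta3_del/del replicate 1.

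Genes of protein folding and quality control in the endoplasmic reticulum rose after Mta2 loss. Proteins that enter this compartment are folded by chaperones, and genes for these chaperones and for the export of misfolded proteins are induced together when unfolded proteins build up. Of 20 such genes, a list chosen after the values of the class were seen, 20 were tested. Of these, 17 had a called positive difference and 3 did not pass, and none was negative (all tested genes: 6.86% and 3.83%). After Mta2 loss 17 were up (all tested genes: 3.72%). After Mta3 loss none was up by the call and 1, Tmed3, was down (all tested genes: 0.85% and 3.48%). The median difference was 1.66 beside 0.01 over all tested genes.

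Hspa5, which encodes the main chaperone BiP, stood at 2654, 2869 and 2683 CPM in Mta2_KO against 839, 837 and 829.6 in Mta2_WT. It stood at 487, 427 and 466 CPM in Mta3_del/del against 311, 337 and 268 in Mta3_flox/flox. Groups were separate in both comparisons, with effects of 1.72 ± 0.08 and 0.59 ± 0.08 and a difference of 1.13 ± 0.12 (adjusted p = 5.65e-05). Derl3, which encodes a component of the channel for misfolded proteins, stood at 31.0, 32.1 and 34.7 CPM in Mta2_KO, whereas the other 9 libraries lay between 1.83 and 3.15. Its difference was 3.63 ± 0.28 (adjusted p = 1.11e-05). Derl3 passed the filter on the mean level through Mta2_KO alone, so that its highest group was set by the filter. Fkbp11, a prolyl isomerase gene of the secretory pathway, stood at 102, 114 and 101 CPM in Mta2_KO against 10.5, 9.38 and 10.8 in Mta2_WT, and between 10.5 and 16.6 in the 6 Mta3 libraries. The Hsp40 co-chaperone gene Dnajc3 had a difference of 2.09, and the secreted factor gene Manf, the chaperone gene Hsp90b1 and Sdf2l1, a partner of Hsp40 co-chaperones, had 1.92, 1.16 and 2.52. In all 20 genes Mta2_KO was farther than Mta2_WT from the level of the Mta3 libraries, against 47.0% of all tested genes. For Derl3 the filter favoured this. The median difference of Mta2_WT from Mta3_flox/flox over the list was 0.01 on the log2 CPM scale, and that of Mta2_KO from Mta3_flox/flox 1.98. The 3 members without a call were Derl1, Syvn1 and Xbp1, with differences of 0.53, 0.72 and 0.86. The smallest Mta2 effect in the list was 0.89, for Sel1l.

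**Figure D2:**
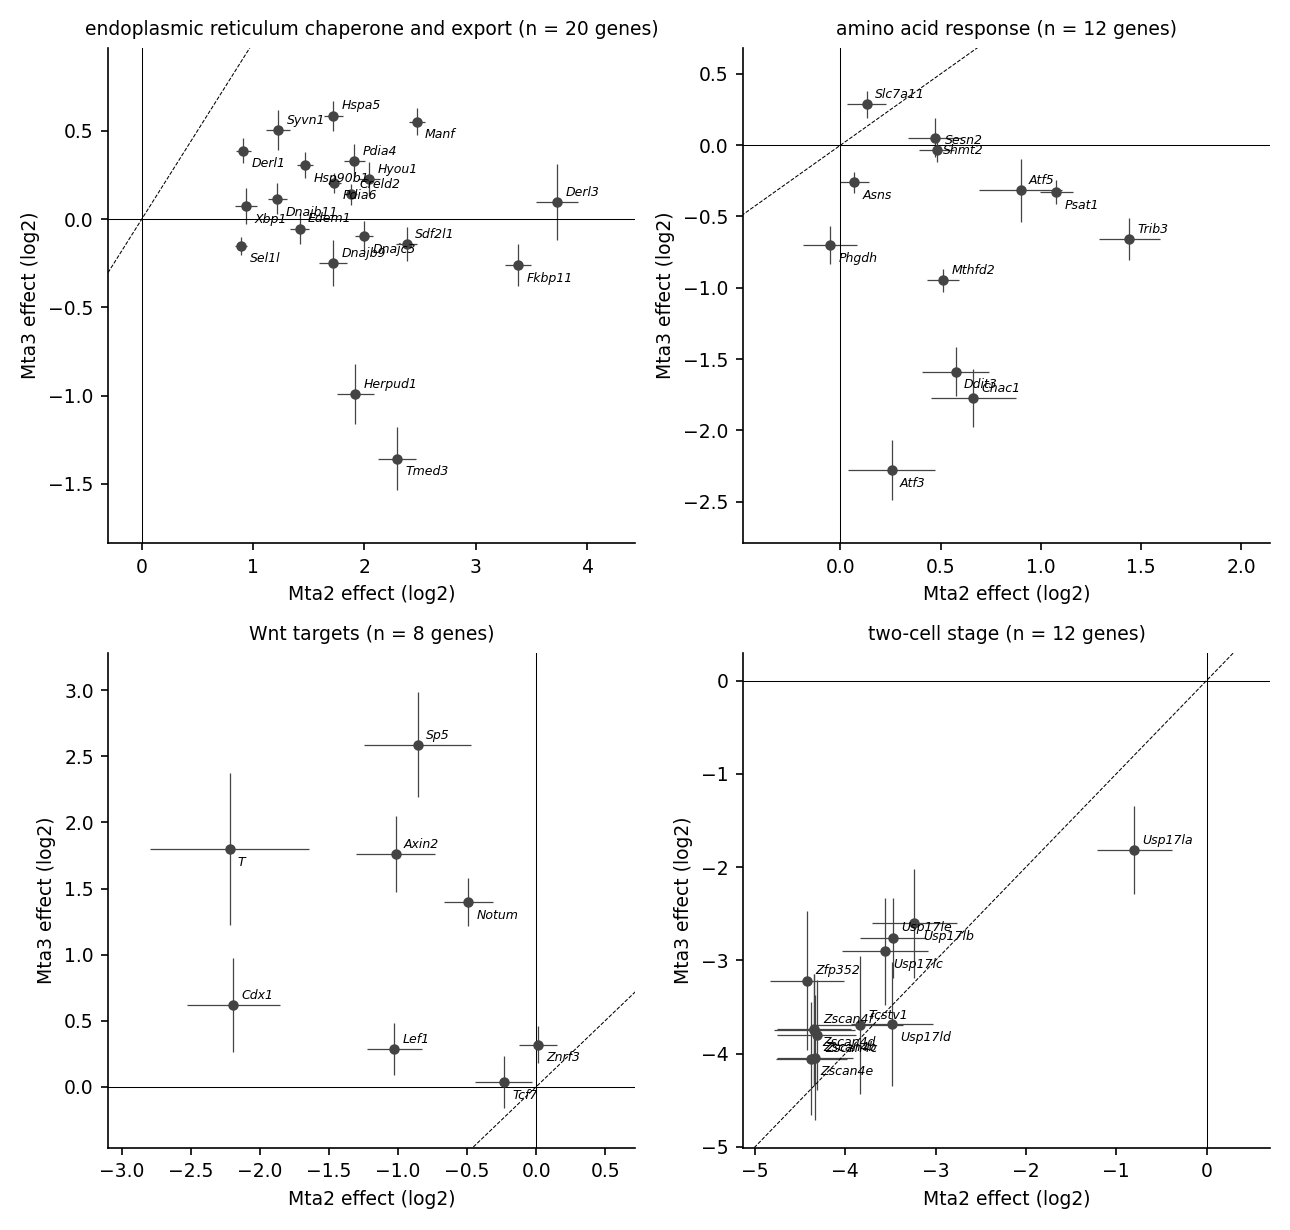
Each point is a tested member of 1 of 4 gene lists, with its Mta2 effect on the horizontal and its Mta3 effect on the vertical axis (log2 fold changes, standard errors as bars, axes scaled to each panel, dashed line at equal effects). Members of the endoplasmic reticulum list lie to the right at Mta2 effects of 0.89 to 3.73, the 2-cell list lies along the dashed line at differences of -1.21 (Zfp352) to 1.02 (Usp17la), and 6 of the 8 Wnt targets lie at the upper left.

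The ER stress response element is the promoter sequence through which unfolded proteins are known to induce such genes. Its letters, searched as CCAAT and CCACG at the ends of a stretch of 19 bases with any letters between them, on both strands of the RefSeq window from 250 bases before to 50 bases after the start (GRCm38.p6), were present for 7 of the 17 members with a window, namely Creld2, Derl3, Dnajc3, Hsp90b1, Hspa5, Pdia6 and Syvn1. They were present for 0.137% of 27025 genes with a window and for 0.235% of the 8502 tested genes with one. Derl1, Hyou1 and Manf had no window in the table. The windows of Hspa5, Derl3 and Hsp90b1 are shown because these genes include low and high levels of the list, with the match in capitals on either strand, beginning 65 bases before the start in Hspa5 and 156 bases before it in Derl3, and with 2 matches in Hsp90b1. A match is a description of the letters and not of binding.
Hspa5, chr2:34771840-34772139, plus strand: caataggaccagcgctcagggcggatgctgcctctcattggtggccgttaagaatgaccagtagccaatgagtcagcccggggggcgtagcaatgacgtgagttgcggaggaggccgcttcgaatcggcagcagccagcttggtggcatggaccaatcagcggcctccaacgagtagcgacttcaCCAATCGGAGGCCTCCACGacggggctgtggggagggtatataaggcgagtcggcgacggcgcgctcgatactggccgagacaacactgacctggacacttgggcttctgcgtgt
Derl3, chr10:75893148-75893447, plus strand: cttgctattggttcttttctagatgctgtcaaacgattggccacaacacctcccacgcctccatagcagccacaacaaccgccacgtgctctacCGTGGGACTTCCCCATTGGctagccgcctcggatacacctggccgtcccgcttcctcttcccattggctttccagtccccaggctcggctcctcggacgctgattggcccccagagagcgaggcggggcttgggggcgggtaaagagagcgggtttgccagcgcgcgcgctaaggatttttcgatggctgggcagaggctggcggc
Hsp90b1, chr10:86705395-86705694, minus strand: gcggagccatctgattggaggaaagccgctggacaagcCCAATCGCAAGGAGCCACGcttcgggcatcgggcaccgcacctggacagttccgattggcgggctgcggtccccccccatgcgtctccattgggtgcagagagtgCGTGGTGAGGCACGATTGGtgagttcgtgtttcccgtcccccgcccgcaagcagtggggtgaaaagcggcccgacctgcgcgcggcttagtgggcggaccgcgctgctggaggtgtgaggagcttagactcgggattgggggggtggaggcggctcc

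The largest positive difference of all tested genes was that of Phf19 (chr2:34893757-34914026, minus strand), which encodes a Polycomb-like subunit of the Polycomb repressive complex 2. It stood at 25.7, 24.2 and 26.7 CPM in Mta2_KO against 0.714, 1.197 and 0.821 in Mta2_WT, and at 3.64, 6.78 and 2.60 in Mta3_del/del against 5.81, 7.76 and 10.4 in Mta3_flox/flox. Mta2_WT was the lowest and Mta2_KO the highest of the 4 groups, whereas the Mta3 groups overlapped. Over the libraries other than Mta2_KO the mean of Phf19 was below the filter, which thus favoured a high Mta2_KO level. The Mta2 effect was 4.80 ± 0.34, the Mta3 effect -0.90 ± 0.31 and the difference 5.70 ± 0.46 (adjusted p = 1.38e-05). None of the other 8 members of the complex that were tested had a called difference (all tested genes: 10.7%). Their values lay between -0.38 for Eed and 0.45 for Suz12. Krtdap, a gene of keratinocyte differentiation, stood at 17.2, 15.1 and 14.7 CPM in Mta2_KO and between 0.316 and 4.09 in the other 9 libraries. Krtdap passed the filter through Mta2_KO alone, so that its highest group was set by the filter. Tuba3a and Tuba3b, testis alpha-tubulin genes that are near-identical copies and may share reads, had differences of 3.72 ± 0.31 and 3.66 ± 0.31.

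Dppa3, which encodes the maternal factor Stella that protects DNA methylation in the zygote, stood at 162, 172 and 166 CPM in Mta2_KO against 32.9, 30.7 and 34.6 in Mta2_WT, with a difference of 2.22 ± 0.30 (adjusted p = 0.000265). Its Mta3 groups overlapped, at 78.8, 154 and 89.7 CPM against 95.3, 80.1 and 118. Among 12 neural genes 5 were tested, of which 2 had a called positive difference (all tested genes: 6.86%) and 4 were up after Mta2 loss (3.72%). The neuronal tubulin gene Tubb3 stood at 213, 222 and 205 CPM in Mta2_KO against 55.6, 54.6 and 60.5 in Mta2_WT, with a difference of 1.44 ± 0.32, and the neural progenitor filament gene Nes had a difference of 1.85 ± 0.24. The neural regulator genes Sox1, Neurog2 and Zic1 were below the filter, at no more than 2.40 CPM in any library. The regulator gene Pax6 passed it, at 20.7, 16.8 and 25.3 CPM in Mta2_KO against 4.01, 4.29 and 14.0 in Mta2_WT. Its Mta2 effect of 1.51 ± 0.52 was called (adjusted p = 0.0433), but its difference of 2.06 ± 0.78 was not (adjusted p = 0.059). Perp, a p53 target for an adhesion protein, rose by 2.38 ± 0.27 after Mta2 loss, with a Mta3 effect of -0.19 ± 0.28.

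Genes with a larger fall after Mta2 loss than after Mta3 loss included Spry1 and Spry2, negative regulators of Erk signalling, and Klf4 and Tbx3, factors of the naive state. Spry2, an inhibitor of receptor tyrosine kinase signalling, stood at 37.5, 34.8 and 36.7 CPM in Mta2_KO against 111, 113 and 108 in Mta2_WT, and at 54.6, 43.3 and 54.6 in Mta3_del/del against 59.5, 64.7 and 66.3 in Mta3_flox/flox. Both sets of groups were separate, but the falls were unequal, -1.60 ± 0.09 and -0.33 ± 0.09, with a difference of -1.27 ± 0.12 (adjusted p = 3.17e-05). Spry1 had a difference of -1.51 ± 0.19, but it lies on chromosome 3, where 13.9% of tested genes had a called negative difference. Of the 9 tested of 15 Erk feedback genes Spry1 and Spry2 were negative and none positive (all tested genes: 3.83% and 6.86%). The naive pluripotency factor gene Tbx3 fell by 1.39 ± 0.11 on the log2 scale after Mta2 loss, with a Mta3 effect of -0.19 ± 0.11 and a difference of -1.20 ± 0.16 (adjusted p = 0.000259). The reprogramming factor gene Klf4 stood at 43.0, 34.4 and 40.8 CPM in Mta2_KO against 99.6, 113 and 85.98 in Mta2_WT, and between 127 and 205 in the Mta3 libraries, where the groups overlapped. Of 15 naive pluripotency genes 4 had a called negative difference (Gbx2, Klf4, Tbx3 and Tfcp2l1) and 1 a positive one (Dppa3), beside 3.83% and 6.86% of all tested genes, with a median difference of -0.44. Of these, Gbx2 also rose after Mta3 loss, and neither effect on Tfcp2l1 was called. Of 10 tested genes of the LIF and Stat3 pathway 4 were negative, Gbx2, Klf4, Tfcp2l1 and Socs3, which encodes a feedback inhibitor of Stat3 signalling, with a median of -0.86. Of 11 general pluripotency genes 1, Lin28a, had a called difference, and Pou5f1 had -0.34 ± 0.09.

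Large Mta2-weighted falls that the rule named were those of Mta2 itself, at -4.71 ± 0.13, and of Htr5a, Nt5e, Klhl3 and Manba. Manba, on chromosome 3, which encodes a lysosomal mannosidase, stood at 71.9, 78.7 and 77.9 CPM in Mta2_KO against 451, 459 and 454 in Mta2_WT, and between 49.6 and 131 in the Mta3 libraries. The Mta2_KO level was thus among those of the Mta3 libraries. Klhl3, an adaptor of a ubiquitin ligase, stood at 3.33, 2.37 and 3.49 CPM in Mta2_KO against 20.4, 21.4 and 23.0 in Mta2_WT, with a difference of -3.68 ± 0.44. Htr5a, a serotonin receptor gene, and Nt5e, which encodes the ectonucleotidase CD73, had differences of -4.15 ± 0.97 and -4.08 ± 0.78.

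Part of the Mta2 weight lay along 1 chromosome. The 498 tested genes of chromosome 3 had a median Mta2 effect of -0.52, against 0.02 for the 10329 genes elsewhere, and a median Mta3 effect of -0.02. The Mta2 effect was below 0 for 435 of them (87.3%), against 47.6% of the other genes. The median deviation of the chromosome from the Mta2_WT mean was -0.54, -0.53 and -0.54 in the 3 Mta2_KO libraries. In the Mta2_WT libraries, whose own mean was the reference, it was between -0.00276 and 0.00129, near 0 by construction. It was between -0.02 and 0.02 in the Mta3 libraries against their own controls. Whether the chromosome was low in Mta2_KO or high in Mta2_WT cannot be told from these values. In 5 stretches of 99 or 100 genes from one end of the chromosome to the other, the medians were -0.39, -0.55, -0.58, -0.52 and -0.52. Negative differences were called for 13.9% of chromosome 3 genes and for 3.35% of the others. Of the 186 Mta2-weighted genes that fell, 33 were on this chromosome, among them Lef1, Spry1, Tet2 and Manba, so that for these the chromosome and the gene cannot be told apart. With chromosomes 3, X and Y left out, 1044 genes had a called difference.

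**Figure D3:**
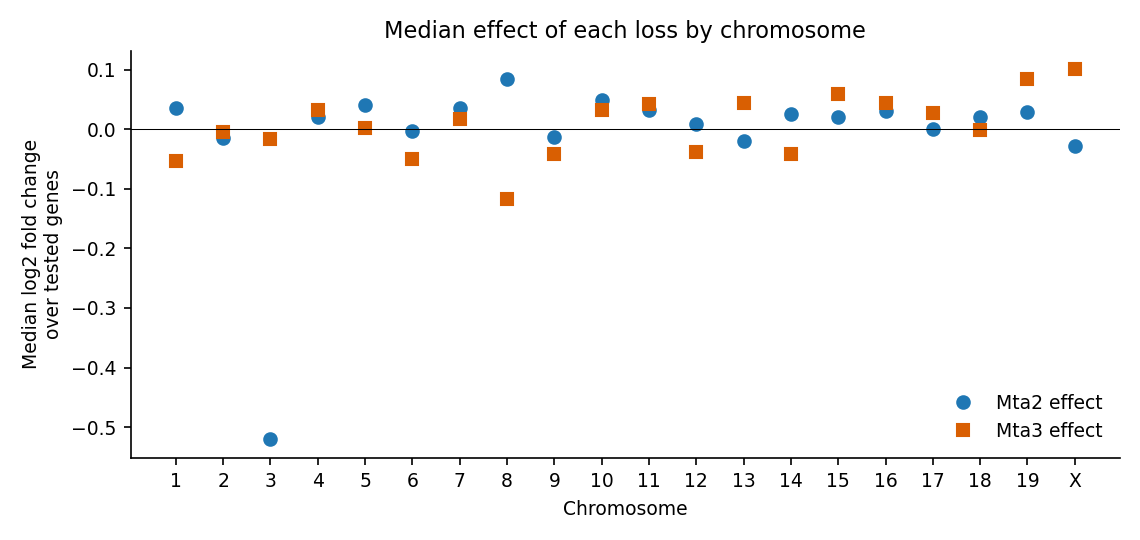
Median log2 fold change over the tested genes of each chromosome, for the Mta2 effect (circles) and the Mta3 effect (squares). Chromosome 3 stands apart at -0.52 for the Mta2 effect only, and the next largest gap between the effects is on chromosome 8, at 0.08 and -0.12.

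At the threshold on fold change, falls outnumbered rises in the Mta3-weighted class, with 138 against 35, whereas without that threshold it held 615 falls and 658 rises. Greb1l, a cofactor of retinoic acid signalling, stood at 4.58, 5.88 and 2.93 CPM in Mta3_del/del against 11.9, 21.4 and 20.3 in Mta3_flox/flox, and at 52.8, 45.8 and 50.8 in Mta2_KO against 27.7, 28.2 and 26.6 in Mta2_WT. Groups were separate in both comparisons, in opposite directions, with effects of -2.02 ± 0.24 after Mta3 loss and 0.86 ± 0.21 after Mta2 loss. Tap1, which encodes a transporter that loads peptides for antigen presentation, stood at 3.67, 2.38 and 2.72 CPM in Mta3_del/del and between 11.2 and 12.5 in Mta3_flox/flox. Its difference was 2.87 ± 0.25 (adjusted p = 1.76e-05). Of 10 antigen processing genes, a list chosen after Tap1 was seen, 5 were tested. Of these 2, Tap1 and H2-K1, had a called positive difference, beside 6.86% of all tested genes. Zc3h6, a zinc finger gene, stood at 1.57, 4.09 and 2.03 CPM in Mta3_del/del against 17.6, 11.8 and 20.3 in Mta3_flox/flox, and between 1.05 and 1.58 in the Mta2 libraries. Zc3h6 passed the filter through Mta3_flox/flox alone. Adgra2, a receptor that takes part in Wnt7 signalling, had a Mta3 effect of -2.43 ± 0.38 and a difference of 2.83 ± 0.53.

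Among the members of the primitive endoderm and fibroblast lists that fell after Mta3 loss were 3 collagen genes. Col4a2, which encodes a chain of basement membrane collagen, stood at 3.57, 4.40 and 4.23 CPM in Mta3_del/del against 12.9, 23.4 and 20.3 in Mta3_flox/flox, and between 3.13 and 4.92 in the Mta2 libraries. Col4a2 passed the filter through Mta3_flox/flox alone. Its difference was 1.83 ± 0.28, that of the partner gene Col4a1 1.502 ± 0.35 and that of the fibrillar collagen gene Col5a1 2.25 ± 0.34. Of the 15 markers of fibroblasts 2, Acta2 and Col5a1, passed the filter. The summed level of all 15, which includes Col5a1, was 54.4 to 117 CPM in Mta3_flox/flox, 32.4 to 33.7 in Mta3_del/del and 16.2 to 23.9 in the Mta2 libraries. Acta2 did not move with it, with a Mta3 effect of -0.08 ± 0.16. The other markers, summed without Acta2 and Col5a1, were also higher in each Mta3_flox/flox library than in any Mta3_del/del library. The defining markers Dcn and Lum reached at most 0.592 and 0.367 CPM in any library, and Col1a1 at most 23.2. Whether fibroblasts had a part in the collagen result was not tested.

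Genes of the amino acid response, which Atf4 induces when amino acids run short, differed between the losses. Of 12 such genes 7 had a called positive difference and none a negative one, beside 6.86% and 3.83% of all tested genes, with a median difference of 1.31 beside 0.01. After Mta3 loss 3 of them fell, Atf3, Chac1 and Ddit3 (all tested genes: 3.48%). After Mta2 loss 2 others rose, Psat1 and Trib3 (all tested genes: 3.72%), so that no member was called in both comparisons. The controls lay farther apart than the mutants. Over the list the median log2 CPM difference was -0.81 of Mta2_WT from Mta3_flox/flox and 0.12 of Mta2_KO from Mta3_del/del. Mta2_WT was farther than Mta2_KO from the Mta3 libraries for 9 of the 12. Mta3_flox/flox was farther than Mta3_del/del from the Mta2 libraries for 8. For members with effects of opposite sign these counts coincide by construction. Chac1, which encodes a glutathione-degrading enzyme, stood at 4.90, 6.15 and 7.40 CPM in Mta3_del/del against 14.8, 21.5 and 26.1 in Mta3_flox/flox, and at 4.88, 4.94 and 5.597 in Mta2_KO against 3.51, 2.92 and 3.35 in Mta2_WT. Groups did not overlap in either comparison, and the Mta3_flox/flox level stood above the other 9 libraries. The difference was 2.44 ± 0.29 (adjusted p = 0.000131). The transcription factor gene Atf3 stood at 14.5, 24.5 and 14.7 CPM in Mta3_flox/flox and between 2.77 and 4.36 in the other 9 libraries. Atf3 passed the filter through Mta3_flox/flox alone, so that its highest group was set by the filter. The pseudokinase gene Trib3 stood at 14.2, 15.2 and 15.8 CPM in Mta2_KO against 5.74, 5.56 and 5.40 in Mta2_WT, and at 17.0, 18.5 and 23.0 in Mta3_del/del against 30.3, 24.6 and 37.0 in Mta3_flox/flox. Mthfd2, a mitochondrial folate enzyme gene, had effects of 0.51 ± 0.08 and -0.95 ± 0.08, with a difference of 1.46 ± 0.11. Asns, which encodes asparagine synthetase, had a difference of 0.33 ± 0.10, and the cystine transporter gene Slc7a11 had -0.16, with an interval of -0.46 to 0.15.

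The letters of the amino acid response element, TGATGNAA on either strand, were found in the windows of 5 of the 12 genes, Asns, Atf3, Chac1, Slc7a11 and Trib3, against 4.51% of all genes with a window and 2.58% of those tested. The windows of Chac1 and Atf3, the members with the largest differences, are shown with the match in capitals, which begins 193 and 110 bases before the start.
Chac1, chr2:119350992-119351291, plus strand: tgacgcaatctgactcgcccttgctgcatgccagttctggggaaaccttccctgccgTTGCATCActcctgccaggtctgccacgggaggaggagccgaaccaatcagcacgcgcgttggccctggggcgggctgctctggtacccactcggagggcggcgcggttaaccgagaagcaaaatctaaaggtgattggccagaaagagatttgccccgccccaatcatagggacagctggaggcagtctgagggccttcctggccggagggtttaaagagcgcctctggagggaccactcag
Atf3, chr1:191183284-191183583, minus strand: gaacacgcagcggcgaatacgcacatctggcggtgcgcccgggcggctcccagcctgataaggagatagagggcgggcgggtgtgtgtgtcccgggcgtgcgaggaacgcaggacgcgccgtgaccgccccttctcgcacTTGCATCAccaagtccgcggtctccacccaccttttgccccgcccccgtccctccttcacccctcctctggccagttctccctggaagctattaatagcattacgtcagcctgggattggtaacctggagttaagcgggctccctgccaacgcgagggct

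Targets of the Wnt pathway had lower values of the Mta2 than of the Mta3 effect. Wnt ligands stabilise beta-catenin, which acts with Tcf and Lef factors, and the Gsk3 inhibitor in 2i does the same. Of 12 targets 8 were tested, and 6 had a called negative difference and none a positive one, beside 3.83% and 6.86% of all tested genes, with a median of -2.33 beside 0.01 over all tested genes. After Mta2 loss 4 fell (Axin2, Cdx1, Lef1 and T), beside 3.68% of all tested genes. After Mta3 loss 4 rose (Axin2, Notum, Sp5 and T), beside 0.85%, so that only Axin2 and T were called in both comparisons. Axin2, a negative feedback gene of the pathway, stood at 37.3, 35.8 and 35.1 CPM in Mta2_KO against 77.8, 78.3 and 63.9 in Mta2_WT, and at 198, 83.5 and 188 in Mta3_del/del against 62.5, 44.2 and 32.5 in Mta3_flox/flox. Groups were separate in both comparisons, with effects of -1.02 ± 0.29 and 1.76 ± 0.29 and a difference of -2.77 ± 0.41 (adjusted p = 0.000456). Sp5, a transcription factor gene, stood at 56.9, 16.1 and 59.8 CPM in Mta3_del/del against 10.3, 6.71 and 5.44 in Mta3_flox/flox, and at 9.38, 6.98 and 8.54 in Mta2_KO against 15.9, 14.99 and 14.4 in Mta2_WT. The mesoderm gene T stood at 15.2, 1.60 and 11.1 CPM in Mta3_del/del against 3.16, 3.10 and 1.81 in Mta3_flox/flox, so that its Mta3 groups overlapped. Replicate 2 of Mta3_del/del was the lowest of its group for Axin2, Sp5, T, Notum, Cdx1 and Lef1. Notum, which encodes a secreted Wnt inhibitor, had effects of -0.49 ± 0.18 and 1.40 ± 0.18. The remaining members, Tcf7 and Znrf3, had differences of -0.27 and -0.30.

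CTTTGAT, the letters that Tcf and Lef factors recognise, were found on either strand in the window of 1 of the 5 tested members with a window, that of Sp5, against 4.29% of all genes with a window and 3.0% of those tested. Cdx1, Notum and Znrf3 had no window in the table. The match in Sp5 begins 104 bases before the start and is shown in capitals.
Sp5, chr2:70474673-70474972, plus strand: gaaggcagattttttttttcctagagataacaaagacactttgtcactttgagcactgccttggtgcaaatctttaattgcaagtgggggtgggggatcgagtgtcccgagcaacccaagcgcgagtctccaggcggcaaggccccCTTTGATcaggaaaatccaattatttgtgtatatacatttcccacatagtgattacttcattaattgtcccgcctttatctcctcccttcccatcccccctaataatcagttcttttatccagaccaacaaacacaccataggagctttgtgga

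Other genes rose with Mta3 loss. Lin28a, which encodes an RNA-binding protein that blocks let-7 maturation, stood at 99.3, 35.3 and 90.3 CPM in Mta3_del/del against 18.7, 14.4 and 8.09 in Mta3_flox/flox. It lay between 50.1 and 51.8 CPM in Mta2_KO and between 69.2 and 75.8 in Mta2_WT, with a Mta2 effect of -0.51 ± 0.32, a Mta3 effect of 2.47 ± 0.34 and a difference of -2.98 ± 0.47 (adjusted p = 0.000722). Etv1, an Ets factor gene, stood at 5.98, 4.05 and 4.92 CPM in Mta3_del/del against 1.84, 1.98 and 1.97 in Mta3_flox/flox, and at 10.5, 11.3 and 10.4 in Mta2_KO against 19.05, 21.3 and 22.2 in Mta2_WT. Trim2, a ubiquitin ligase gene on chromosome 3, had a difference of -2.87 ± 0.59.

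The largest difference in the opposite class was that of Peg10 (chr6:4747306-4760517, plus strand), an imprinted gene of retrotransposon origin that the placenta needs. It stood at 29.5, 24.2 and 31.2 CPM in Mta2_KO against 267, 274 and 241 in Mta2_WT, and at 69.8, 60.8 and 38.7 in Mta3_del/del against 12.1, 17.2 and 6.31 in Mta3_flox/flox. Groups were separate both times, with effects of -3.19 ± 0.27 and 2.24 ± 0.29 and a difference of -5.44 ± 0.40 (adjusted p = 8.31e-06). Of 18 tested imprinted genes 3 had a called negative difference, Peg10, Impact and Zdbf2, and 1, Igf2r, a positive one, beside 3.83% and 6.86% of all tested genes. The difference of Igf2r, 1.02 ± 0.15, was under the threshold on fold change in 7 alternatives, the smallest value being 0.874. Impact, a translation regulator gene, stood at 144, 149 and 146 CPM in Mta2_KO against 267, 276 and 273 in Mta2_WT and at 175, 156 and 169.6 in Mta3_del/del against 122, 122 and 122 in Mta3_flox/flox. Ddx58, which encodes the viral RNA sensor RIG-I, stood at 9.66, 9.43 and 11.0 CPM in Mta2_KO against 26.0, 28.9 and 29.7 in Mta2_WT, and at 61.5, 30.3 and 53.4 in Mta3_del/del against 20.6, 17.0 and 18.0 in Mta3_flox/flox. Cttnbp2, Gbx2, Krt8 and Sh2d4b were also lower after Mta2 loss and higher after Mta3 loss, with differences of -3.45, -3.02, -4.36 and -2.49, the Mta3 groups of Gbx2 and Krt8 overlapping.

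Genes opposed the other way included Tmed3, which encodes a cargo receptor between the endoplasmic reticulum and the Golgi. It stood at 13.5, 13.2 and 12.9 CPM in Mta2_KO against 2.61, 2.92 and 2.59 in Mta2_WT, and at 2.73, 4.09 and 2.44 in Mta3_del/del against 7.05, 8.61 and 7.89 in Mta3_flox/flox, with a difference of 3.65 ± 0.25 (adjusted p = 4.88e-06). Gpx3, which encodes a secreted glutathione peroxidase, stood at 12.1, 11.5 and 13.4 CPM in Mta2_KO against 3.71, 4.19 and 3.28 in Mta2_WT, and at 5.25, 5.996 and 6.22 in Mta3_del/del against 13.9, 26.4 and 21.8 in Mta3_flox/flox. The atypical cadherin gene Fat2, the immune receptor gene Nfam1 and the adhesion receptor gene Adgrb2 had differences of 3.13 ± 0.39, 3.13 ± 0.41 and 3.02 ± 0.47. For Gpx3, Fat2, Nfam1 and Adgrb2 the highest group mean was that of Mta3_flox/flox and the lowest that of Mta2_WT, whereas both mutants lay between them.

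**Figure D4:**
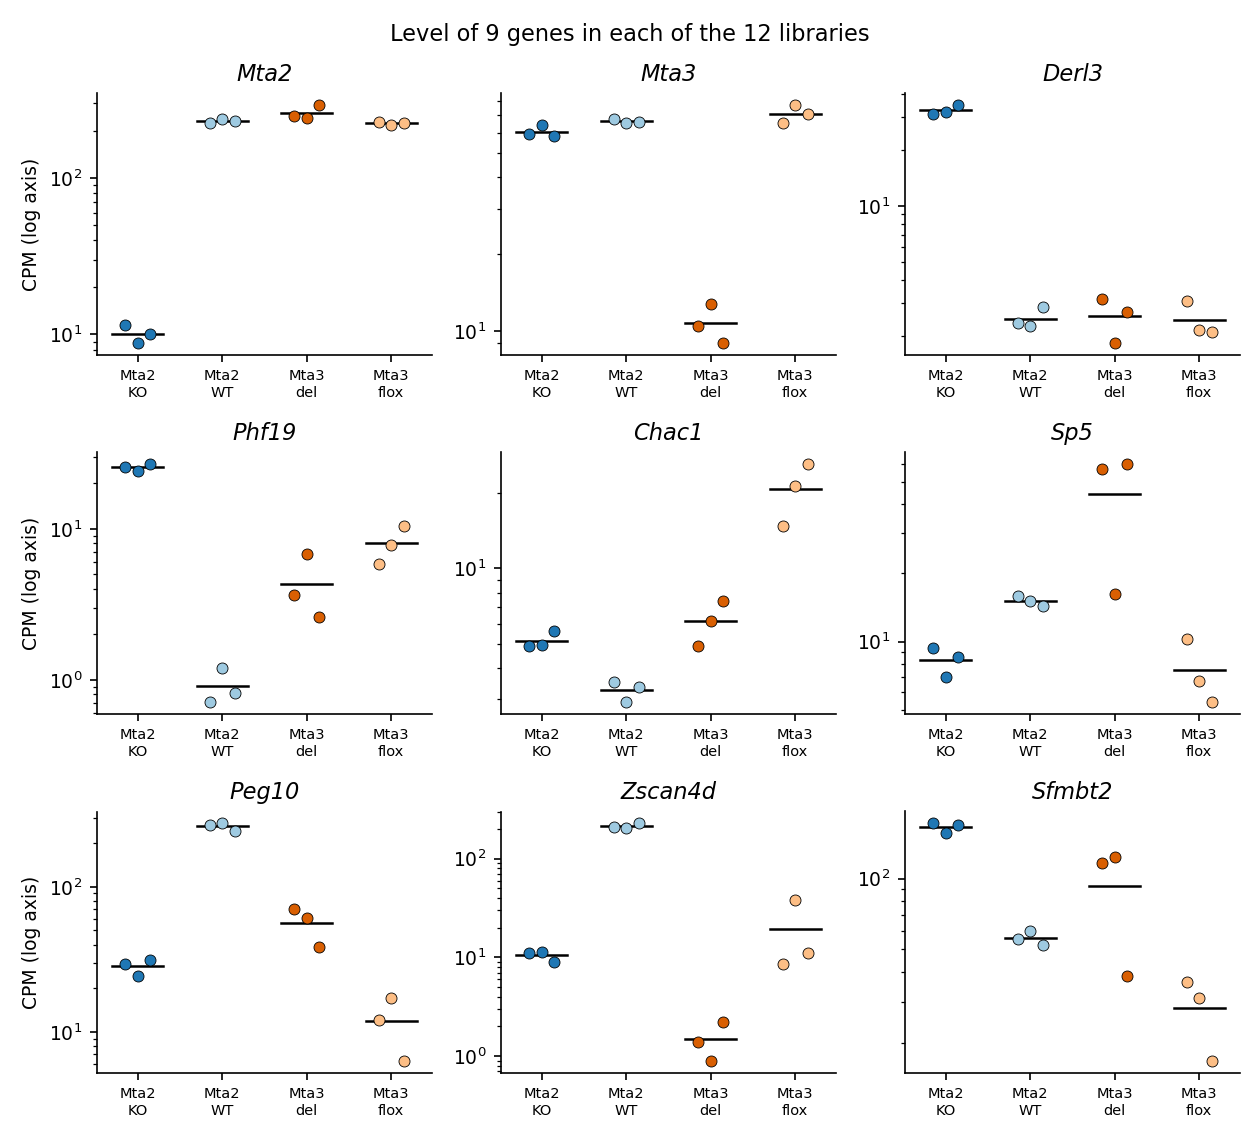
CPM on a log axis in each of the 12 libraries for 9 genes, with 1 point per library (replicates 1 to 3 from left to right in each group) and a bar at the group mean. Derl3 is high in Mta2_KO only, Zscan4d falls in both mutants from control levels that differ, Peg10 moves in opposite directions, and Sp5 is high in 2 of the 3 Mta3_del/del libraries.

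The split class, in which small opposite effects add up, held part of the p53 targets. Mdm2, the negative regulator of p53, stood at 243, 229.9 and 257 CPM in Mta2_KO against 172, 175 and 166 in Mta2_WT, and at 153, 183 and 140.2 in Mta3_del/del against 239, 273 and 246 in Mta3_flox/flox, with a difference of 1.19 ± 0.13 (adjusted p = 7.14e-05). The pro-apoptotic gene Bbc3 had a difference of 1.58 ± 0.24. Of 14 tested p53 targets 3 had a called positive difference, Bbc3, Mdm2 and Perp, and 1, the pro-apoptotic gene Pmaip1, a negative one, and 10 were not called, beside 6.86% positive and 3.83% negative over all tested genes. The magnesium channel gene Mrs2 and the membrane traffic genes Micall1 and Pacsin1 had the largest positive differences that the rule named in this class, 1.80, 1.99 and 1.92, and Dapp1, Ctnnd2 and Cachd1 the largest negative ones, -1.85, -1.85 and -1.79. Dapp1 lies on chromosome 3, as do 34 of the 162 split genes with a negative difference, where the chromosome and the gene cannot be told apart.

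The counts of NuRD genes stand beside the 10.7% of all tested genes that had a called difference. Of 15 core genes the 2 targeted ones and Chd5, which encodes a neuronal remodeller, had one. Chd5 stood at 7.20, 6.54 and 7.20 CPM in Mta3_del/del against 12.8, 13.1 and 13.6 in Mta3_flox/flox. Under the threshold on fold change were the histone chaperone gene Rbbp7, at -0.95 ± 0.14 (adjusted p = 0.000508), and Gatad2b, which encodes a linker of the complex, on chromosome 3, at -0.86 ± 0.13 (adjusted p = 0.000462), and a missing call does not show equal effects. Among 10 tested associated factors 1, the zinc finger gene Zfp532, was called, at -1.23 ± 0.19, and the related Zfp687, on chromosome 3, had -0.999 ± 0.10, which was past the threshold on fold change in some alternatives.

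The remaining lists varied, and their counts stand beside 6.86% positive and 3.83% negative differences over all tested genes. Of 18 cholesterol synthesis genes none had a called difference, the median difference being -0.13, and of 17 glycolysis genes 1 was positive (Pfkp) and 2 were negative (Pdk1 and Tpi1). Of 10 genes of DNA methylation Tet2 and Dnmt3b were negative, and of 7 tested formative and primed pluripotency genes Dnmt3b and Lef1 were. The difference of Tet2 was -0.859, and not called, without Mta3_del/del replicate 2. Of 9 tested germline genes 3 were positive, Dazl, Ddx4 and Hormad1, and 1, Brdt, was negative, and Ddx4 was under the threshold on fold change in 4 alternatives. The meiotic RNA-binding protein gene Dazl stood at 75.8, 101 and 84.3 CPM in Mta3_del/del against 156, 491 and 396 in Mta3_flox/flox, and its difference of 1.59 ± 0.42 was no longer called without replicate 3 of both Mta3 groups (adjusted p = 0.0539). Of 6 tested trophoblast genes Tfap2c was positive, though under the threshold on fold change in 5 alternatives, and Eomes, Krt8 and Krt18 were negative, and of 5 mesendoderm and Nodal genes Eomes and T were negative. Of 6 primitive endoderm genes the 2 called were Col4a1 and Col4a2. None of the 5 tested interferon response genes, the 2 metallothionein genes and the 4 Y-linked genes had a called difference, but with a replicate block the Y-linked Ddx3y and Eif2s3y had one (adjusted p = 0.00445 and 0.00581). Both were near the floor in the Mta2 series, at no more than 0.0254 CPM in Mta2_KO and 0.568 in Mta2_WT. They passed the filter through replicate 3 of the Mta3 groups alone. Of 8 ES cell markers Klf4 and Tfcp2l1 had a called difference.

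Since the 2 comparisons have separate controls, the group that stood apart from the other comparison was counted for each gene, a count added after the values were seen. Among the 268 Mta2-weighted genes that rose, Mta2_KO was the farther group from the mean of the Mta3 groups for 109 (40.7%) and Mta2_WT for 159, beside 47.0% for Mta2_KO over all tested genes. Among the 138 Mta3-weighted genes that fell, Mta3_del/del was the farther from the Mta2 groups for 36 (26.1%) and Mta3_flox/flox for 102, beside 44.3% over all tested genes. The filter favours Mta3_flox/flox here, because some of these genes, such as Atf3 and Col4a2, passed it through Mta3_flox/flox alone. In the split class each control was the farther group for 211 of the 301 positive and 109 of the 162 negative differences. In the opposite class each control was the farther for 27 of the 34 genes up after Mta2 loss and for 9 of the 17 down. In these classes the effects have opposite signs, so that the counts of both controls are equal by construction. Each count is thus a single observation, which depends on the series with the higher mean level. Among the 109 shared genes that fell, Mta2_WT was the farther for 96, a count that the filter favours because some passed it through Mta2_WT alone. The library kit of each comparison is not given in the sources used here, so line, kit and genotype cannot be told apart in these levels.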

How the data were processed

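RNA-seq libraries of 12 mouse ES cell samples were used, 3 each of Mta2_KO, Mta2_WT, Mta3_del/del and Mta3_flox/flox, grouped by their labels. The deposited files hold raw gene counts. The authors made these counts by trimming the reads with Trim Galore 0.4.1, aligning to GRCm38 with TopHat2 2.1.0 and counting with featureCounts 1.5.0 on the Ensembl 86 annotation. Libraries were single-end and made with a directional or a low-input total RNA kit; which kit was used for which library is not given in the sources used here. Counting with this annotation may split reads between near-identical copies. No columns were left without a sample.

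Counts were scaled by TMM and tested in edgeR 4.0.16 (R 4.3.3) with a mean per group, as the 2 effects and their difference, over genes with a mean above 5 CPM in the 12 libraries. Totals per library were 13622624 to 40613585 counts. A call needed a log2 value above 1 or below -1 and a p under 0.05 after Benjamini-Hochberg adjustment. The scripts were tested on simulated data. Symbols and positions came from the GRCm38 annotation, with 21852 of 22018 identifiers matched, and promoter windows from RefSeq (GRCm38.p6). Named were the MTA genes, the 5 genes of each class and direction (3 for the split class) with the largest difference and with groups of libraries that do not overlap (in the shared class, with the largest smaller effect), leaving out unnamed genes and multicopy families, and up to 3 members of each list. A result that this rule would name is not reported here. Further list members were named for the group they belong to. The members and lists were chosen with earlier results of these data known, and the lists of the 2-cell stage, of the endoplasmic reticulum and of antigen processing after the values of this comparison were seen.

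Alternatives were DESeq2 1.42.0, limma-voom (limma 3.58.1) with group weights, RLE scaling, a replicate block, other filters on low counts, no threshold on fold change, separate fits of the 2 series, leaving out chromosomes 3, X and Y, and leaving out each library in turn. Leaving out both Mta3 libraries numbered 3 and a covariate of summed olfactory receptor CPM were added after the data were seen. Libraries of other genotypes in the series were not used here.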

Additional observations from a re-analysis of the deposited data

Results flagged for a closer look

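The test of the difference itself called 743 genes with a larger and 415 with a smaller Mta2 than Mta3 effect, and 51 genes were called in opposite directions by the 2 effects. Olfactory receptor genes, which ES cells are not known to use, were summed as a measure outside the comparisons and ranged from 31.4 CPM in Mta3_del/del replicate 3 to 192 CPM in Mta2_WT replicate 3. Groups of 3 libraries were not tested for outlying samples.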

How the results depend on the processing

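No named value that was called in the main fit or in the alternative changed sign. Sign changes of values called in neither were not counted. The balance of some counts turned without the threshold on fold change, from 743 positive and 415 negative differences to 1985 and 2050. Of 3063 comparisons of 133 named values with their alternatives, 2956 kept their side of the threshold, 40 lost the call and 67 gained it. Further list members named for their group, such as Hspa5, Derl3, Chac1 and Atf3, were not among these 133 values. DESeq2 called 1191 genes for the difference, 1145 of them among the 1158, limma-voom 1206 (1128 shared) and RLE scaling 1156 (1145 shared), and no gene called in both had the opposite sign. Replicates of the 2 series share numbers, but the numbers did not meet the rule for pairing, the correlation of their deviations being between -0.321 and 0.507 in the Mta2 series and between -0.129 and 0.370 in the Mta3 series. The Y-linked transcripts in replicate 3 of both Mta3 groups link these 2 libraries, and whether the other numbers pair libraries is not known. With a replicate block within each series, 797 positive and 393 negative differences were called.

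Counts moved with the genes tested. With a mean above 5 CPM in at least 1 group, 566 genes fell after Mta3 loss, 221 of them Mta3-weighted, and 174 were shared and down. With filterByExpr on 16304 genes, 1388 positive and 820 negative differences, 744 and 908 Mta2 effects and 228 and 1346 Mta3 effects up and down were called. Its classes held, up and down, 438 and 334 Mta2-weighted, 85 and 469 Mta3-weighted, 80 and 38 opposite and 35 and 274 shared genes, with 6 graded up, 342 split down, 44 negative list members and a Pearson correlation of 0.255. With no filter, on 21645 genes, these were 1402 and 791, 797 and 853, 241 and 1319, 463 and 303, 96 and 442, 79 and 39 and 38 and 269, with 6, 332, 43 and 0.0675. With no threshold on fold change, differences numbered 1985 and 2050, Mta2 effects 2071 and 2042 and Mta3 effects 1961 and 2002. The classes then held 746 and 834 Mta2-weighted, 658 and 615 Mta3-weighted, 415 and 334 opposite, 89 and 107 graded and 351 and 374 shared genes, with 111 split up and 41 and 55 list members.

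With each effect from a fit of its own 6 libraries, 56 genes rose after Mta3 loss, and 23 genes were Mta3-weighted up, 7 opposite with Mta2 down, 5 graded down and 9 shared up. Without both Mta3 libraries numbered 3, these were 57, 20 and 5 for the first 3 of these, and the correlations were 0.441 (Pearson) and 0.0995 (Spearman). With the olfactory receptor covariate, 11 genes were opposite with Mta2 down and 5 graded up. Why the last 3 settings moved these counts was not tested.

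Leaving out 1 library at a time gave 688 to 886 positive and 371 to 484 negative differences, 382 to 403 and 369 to 419 Mta2 effects up and down, and 71 to 140 and 300 to 579 Mta3 effects. Classes ranged, up and down, over 240 to 269 and 169 to 207 (Mta2-weighted), 28 to 62 and 114 to 266 (Mta3-weighted), 25 to 50 and 8 to 33 (opposite), 2 to 5 and 9 to 52 (graded), 275 to 329 and 131 to 196 (split) and 11 to 19 and 58 to 127 (shared), list members over 24 to 30 and 27 to 35, and the correlations over 0.202 to 0.414 and 0.00627 to 0.0817. The highest Mta3 and Mta3-weighted counts came without Mta3_del/del replicate 2, the fewest shared and most graded falls without Mta3_flox/flox replicate 2, and the fewest opposite genes with Mta2 down without Mta3_del/del replicate 3.

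The sign of the median difference of a list changed in 16 comparisons, for NuRD core, Polycomb repressive complex 2, formative and primed pluripotency, cholesterol synthesis, the 2-cell stage and Y-linked genes, that of the 2-cell stage being 0.0700 without Mta3_del/del replicate 3 and 0.407 without both Mta3 libraries numbered 3. With 3 libraries per group and a wider spread in the Mta3 series, small Mta3 effects are the least certain, and equal effects were rarely shown.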

Other observations

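Distances between libraries, as the root mean square difference of log2 CPM over the tested genes, averaged 0.682 between Mta2_KO and Mta2_WT, 0.623 between Mta3_del/del and Mta3_flox/flox and 0.878 between the controls Mta2_WT and Mta3_flox/flox. Within groups they averaged 0.192 in Mta2_KO, 0.265 in Mta2_WT, 0.424 in Mta3_del/del and 0.427 in Mta3_flox/flox.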
